A study of Mus musculus with 4 samples.

Results

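The genes described here are the survival members of the BCL2 family, Mcl1, Bcl2l1, Bcl2, Bcl2l2, Bcl2a1b, Bcl2a1d and Bcl2a1a, and the pore-forming effectors Bax, Bak1 and Bok. They were chosen by gene symbol, and all 10 had an entry among the 23275 entries of the deposited table. The authors tested 8 of the 10, among 12683 tested entries, and Bcl2a1a and Bcl2a1d were marked as not tested. RNA came from B220+CD43+ cells, a gate that holds early B-lineage cells, sorted from bone marrow of C57BL/6 mice at 8 weeks of age. In 2 libraries the mice were Hdac3F/- Mb1cre+/-, with 1 conditional and 1 null allele of the histone deacetylase gene Hdac3. The other 2 libraries came from Hdac3+/+ Mb1cre+/- mice, called wild type here, so both groups carried the same cre allele. Mb1-cre is a recombinase known to act in the B lineage, and other cells of the gate in the first group would keep the conditional allele intact beside the null one. Each library pooled cells of 2 mice.

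Mitochondrial apoptosis is decided by binding between 3 classes of BCL2 proteins. The survival proteins hold the effectors and the BH3-only death proteins in check, and effectors set free assemble pores in the outer mitochondrial membrane that release cytochrome c. Developing B cells are known to depend on MCL-1 at the progenitor stages and on BCL-XL, the product of Bcl2l1, at the pre-B stage, while BCL-2 is known for the survival of mature lymphocytes. BAX and BAK, the product of Bak1, act redundantly in lymphocytes. These proteins are controlled to a large part by their stability and location, which RNA levels do not show.

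None of the 8 tested survival and effector genes was called in Hdac3-deleted cells by the authors' Cuffdiff test at a q-value under 0.05. Of all tested genes 6.95% were called, 2.81% higher and 4.14% lower. With a share that small, 0 of 8 is no result about these genes. The count was also 0 of 8 at an unadjusted p under 0.05, a level that 17.1% of all tested genes reached, and 0 when p-values were taken from a normal distribution of the Cuffdiff statistic, which called 3.73% of genes. The lowest q among the 8 was 0.414, that of Mcl1 in the authors' deposited table. The point estimates ran from 1.28-fold higher for Mcl1 to 1.69-fold lower for Bcl2a1b. Their median log2 fold change was 0.14 and that of all tested genes 0.03. Of the 8 values, 6 were above 0, and so were 53.4% of all tested genes.

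Levels are given in FPKM, fragments scaled to transcript length and library size. The table holds 1 value per genotype that combines both libraries, so no spread between libraries can be given and the depth of the libraries is unknown. Fold changes are the Hdac3-deleted value over the wild-type value. Their intervals are approximate 95% intervals whose standard error is the log2 fold change divided by the Cuffdiff statistic. In bulk RNA, fewer cells of a type and less RNA per cell cannot be told apart.

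Hdac3 itself was 22.0 FPKM in Hdac3-deleted cells and 46.8 FPKM in wild-type cells, or 47.1% of the wild-type level (q = 0.0016 in the authors' deposited table). Whole-gene values include exons outside the deleted part. Every cell of the Hdac3F/- Mb1cre+/- mice also carried the null allele, so this level does not give the extent of deletion by cre. All 10 B progenitor markers had higher values in Hdac3-deleted cells, and 5 were called, with a summed level of 3409 FPKM in Hdac3-deleted cells and 2078 FPKM in wild-type cells, Igll1 and Dntt having the highest means. Of these 5 genes, Igll1, Dntt, Vpreb1 and Pax5 were not called when a normal distribution of the Cuffdiff statistic was used, and Rag1 was. Neutrophil and monocyte markers summed to 2642 FPKM in Hdac3-deleted cells and 10697 FPKM in wild-type cells, with 12 of 13 tested genes called lower. Basophil and mast cell markers summed to 6.44 FPKM in Hdac3-deleted cells and 27.9 FPKM in wild-type cells, with lower values in all 8 tested genes and 4 of them called. Plasmacytoid dendritic cell markers summed to 4054 FPKM in Hdac3-deleted cells and 3166 FPKM in wild-type cells, with higher values in all 10 genes and 0 called. T, NK and innate lymphoid markers stood at 459 FPKM in Hdac3-deleted cells and 401 FPKM in wild-type cells, with higher values in 9 of 10 genes and Tcf7 the 1 called. Erythroid markers summed to 148 FPKM in Hdac3-deleted cells and 197 FPKM in wild-type cells, with lower values in 4 of 5 tested genes and Car2 the 1 called. Of all tested genes 6.95% were called and 53.4% had higher values. Beside that share, the 0 or 1 called of the plasmacytoid dendritic, T, NK and innate lymphoid and erythroid lists is no result about those cells. Tcf7, Mpo and Gata2 also lost their calls when a normal distribution of the Cuffdiff statistic was used. No marker with an entry was at 0 in either genotype, and the part of these cells in the levels below was not tested.

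Mcl1, whose short-lived product guards progenitors, was the most abundant of the 10 transcripts in both genotypes, and the effectors Bax and Bak1 came next. In the mm10 build Mcl1 lies on chromosome 3, from 95658721 to 95663178 on the plus strand. Its level was 152 FPKM in Hdac3-deleted cells and 119 FPKM in wild-type cells. This was a 1.28-fold difference with an interval from 0.903-fold to 1.81-fold (q = 0.414 in the authors' deposited table). Within a 2-fold range of the mean Mcl1 level lay 1160 other tested genes, of which 7.41% were called, and the smallest increase called among them was 1.52-fold. The Mcl1 estimate lay below that size, and its interval reached above it.

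**Figure D1:**
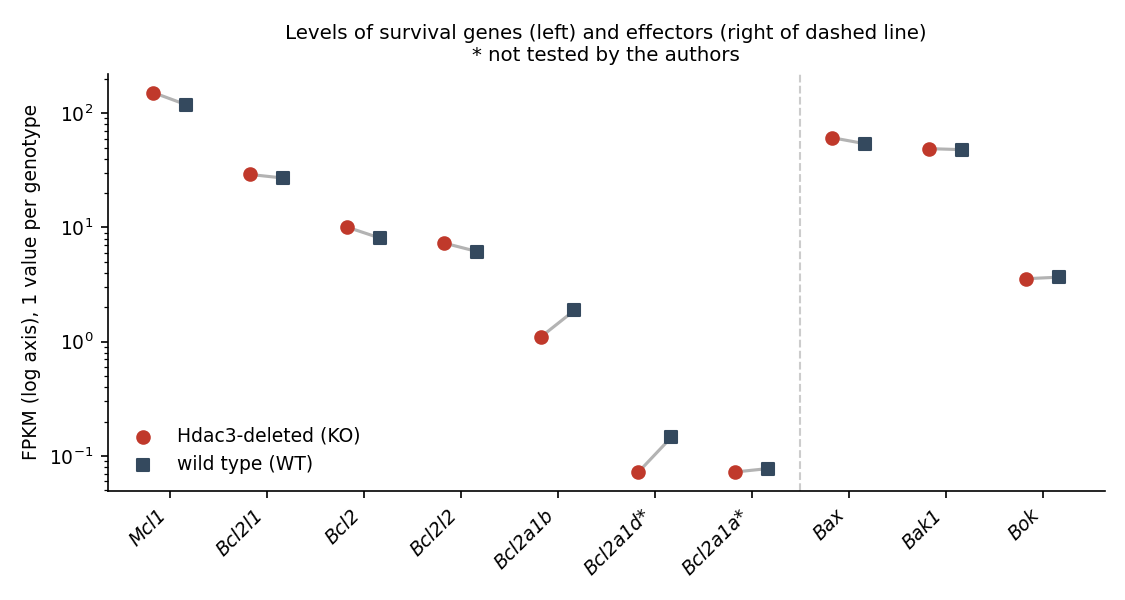
FPKM of the 7 survival genes and the 3 effectors on a log axis, with the Hdac3-deleted value (circle) left of the wild-type value (square) for each gene and 1 combined value per genotype without error. Levels span from 152 FPKM for Mcl1 to 0.0721 FPKM for Bcl2a1d, and every pair but those of Bcl2a1b and Bcl2a1d differs by 1.28-fold or less.

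Bcl2l1, which encodes BCL-XL, was 29.1 FPKM in Hdac3-deleted cells and 27.1 FPKM in wild-type cells. The gene is on chromosome 2 from position 152780668 to 152831682, on the minus strand. Its 1.07-fold difference had an interval from 0.720-fold to 1.60-fold (q = 0.895 in the authors' deposited table). Mcl1 exceeded Bcl2l1 by 5.22-fold in Hdac3-deleted cells and by 4.39-fold in wild-type cells. The entry gives 1 value for all isoforms, so the long survival form and the short death-promoting form of Bcl2l1 cannot be told apart, and the same holds for the forms of Mcl1.

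Bcl2, the founding member of the family, was scarcer than Mcl1 and Bcl2l1. It was 10.1 FPKM in Hdac3-deleted cells and 8.07 FPKM in wild-type cells, on chromosome 1 from position 106538179 to 106714290. The 1.25-fold difference had an interval from 0.840-fold to 1.85-fold (q = 0.462 in the authors' deposited table). Bcl2l2, encoding the related survival protein BCL-W, was 7.30 FPKM in Hdac3-deleted cells and 6.16 FPKM in wild-type cells, on chromosome 14 from position 54883425 to 54888234. Its 1.19-fold difference had an interval from 0.789-fold to 1.78-fold (q = 0.647 in the authors' deposited table). In the GENCODE M21 annotation of the same build, exons of Bcl2l2 overlap those of the same-strand gene Gm20521, and 12.1% of the 50-base windows of its transcripts also occur there, a window length chosen here because the read length is not known. Bcl2 has an opposite-strand neighbour with overlapping exons, D630008O14Rik, and 5.25% of its windows occur in transcripts of other genes. For the 4 survival genes outside the Bcl2a1 cluster, the combined values were thus higher in Hdac3-deleted cells by 1.07-fold to 1.28-fold, and none of these differences was called.

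The Bcl2a1 genes are copies of the gene for A1, a survival protein known from haematopoietic cells and as a target of NF-kappa-B. They are nearly the same in sequence, which bears on how far their values can be separated. The coding sequences of Bcl2a1a, Bcl2a1b and Bcl2a1d are each 516 bases long without the stop codon in GENCODE M21. Bcl2a1b and Bcl2a1d are 98.8% identical, Bcl2a1a and Bcl2a1d 98.6% and Bcl2a1a and Bcl2a1b 97.9%. Only 12 positions vary among the 3 copies, and 6 of these fall in the first 90 coding bases, shown here 5′ to 3′ with the variable positions in capitals.
Bcl2a1b: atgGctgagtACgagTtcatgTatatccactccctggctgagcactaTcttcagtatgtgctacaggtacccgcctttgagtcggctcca
Bcl2a1d: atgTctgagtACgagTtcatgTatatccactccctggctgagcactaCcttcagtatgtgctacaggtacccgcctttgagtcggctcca
Bcl2a1a: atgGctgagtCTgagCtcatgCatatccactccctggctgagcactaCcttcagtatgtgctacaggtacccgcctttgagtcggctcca
In the whole coding sequence, the longest stretch without a difference between Bcl2a1a and Bcl2a1d runs over 314 bases. Of the 50-base windows of each transcript, 79.2% for Bcl2a1b, 79.5% for Bcl2a1d and 69.0% for Bcl2a1a also occur in another gene, namely in the other copies, Bcl2a1c or Gm29094. The same share was 0 for Mcl1, Bcl2l1 and Bok. The sources used here do not say how fragments that match several copies were divided, so the split between the copies is uncertain.

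All 3 Bcl2a1 copies were scarce, and each had a lower value in Hdac3-deleted cells. Only Bcl2a1b was tested, and it was not called. Bcl2a1b, on chromosome 9 from position 89199273 to 89207838, was 1.11 FPKM in Hdac3-deleted cells and 1.88 FPKM in wild-type cells. It was 1.69-fold lower, and as a ratio of Hdac3-deleted over wild type its interval ran from 0.318 to 1.10 (q = 0.485 in the authors' deposited table). Bcl2a1d was 0.0721 FPKM in Hdac3-deleted cells and 0.146 FPKM in wild-type cells, and Bcl2a1a was 0.0725 FPKM in Hdac3-deleted cells and 0.0776 FPKM in wild-type cells. Summed over the copies, the level was 1.25 FPKM in Hdac3-deleted cells and 2.10 FPKM in wild-type cells, or 1.68-fold lower. The sum removes the question of the split among the 3 copies, but not that of fragments matching Bcl2a1c or Gm29094. Exons of Gm29094, which has no entry under that name, overlap those of Bcl2a1b on the same strand. Neutrophil and monocyte markers, among them S100a8 at 1172 FPKM in Hdac3-deleted cells and 4815 FPKM in wild-type cells, were lower in the same samples, and their part in the Bcl2a1b value was not tested. The remaining copy, Bcl2a1c, was listed at 0 in both genotypes.

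The levels of the 3 effectors differed by 1.13-fold or less between the genotypes. Bax, on chromosome 7 from position 45461695 to 45466898 and known as a p53 target, was 61.1 FPKM in Hdac3-deleted cells and 54.0 FPKM in wild-type cells. Its 1.13-fold difference had an interval from 0.801-fold to 1.59-fold (q = 0.760 in the authors' deposited table). Exons of Bax overlap those of the same-strand gene Gm45808, and 8.51% of the 50-base windows of Bax transcripts also occur there. The p53 gene Trp53 was 102 FPKM in Hdac3-deleted cells and 82.2 FPKM in wild-type cells and was not called either. Bak1, on chromosome 17 from position 27018035 to 27036378 as the table gives its locus, was 49.0 FPKM in Hdac3-deleted cells and 48.0 FPKM in wild-type cells. That 1.02-fold difference had an interval from 0.660-fold to 1.58-fold (q = 0.976 in the authors' deposited table). The opposite-strand gene Ggnbp1 shares this locus, and 17.1% of the 50-base windows of Bak1 transcripts occur there in antisense. Ggnbp1 itself was listed at 1.45 FPKM in both genotypes, and its part in the Bak1 value was not tested. Bok, an effector less bound by the survival proteins, was 3.56 FPKM in Hdac3-deleted cells and 3.68 FPKM in wild-type cells, on chromosome 1 from position 93685694 to 93695762. It was 1.03-fold lower, and as a ratio its interval ran from 0.573 to 1.64 (q = 0.975 in the authors' deposited table).

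**Figure D2:**
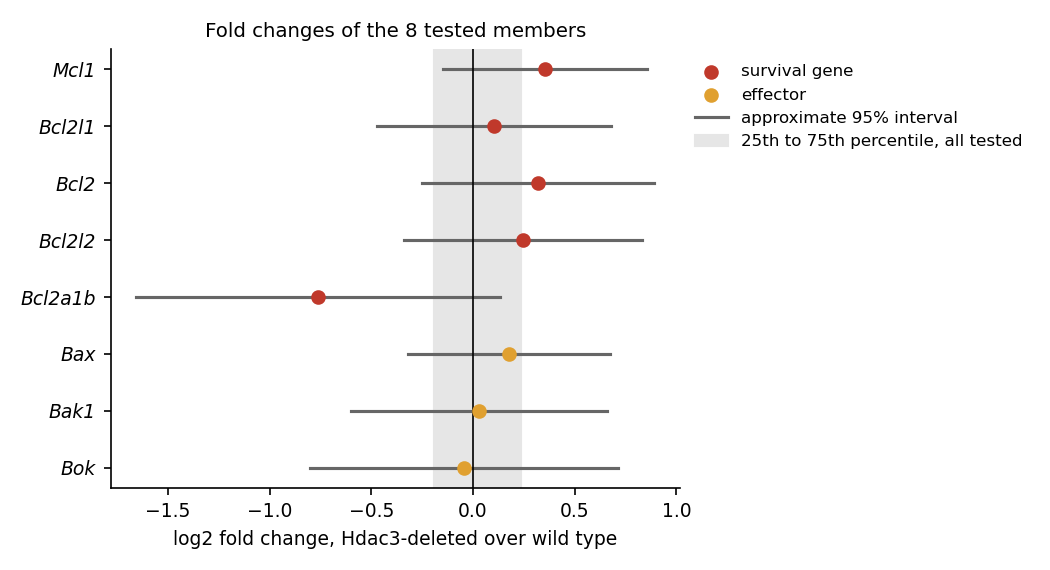
Log2 fold change, Hdac3-deleted over wild type, of the 8 tested genes, with points for the estimate, lines for the approximate 95% interval and a grey band for the interquartile range of all tested genes, from -0.19 to 0.24. Every interval of the 8 genes includes 0, and Bcl2a1b lies farthest from 0 at -0.76.

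The rank order of the 8 tested transcripts was the same in both genotypes, namely Mcl1, Bax, Bak1, Bcl2l1, Bcl2, Bcl2l2, Bok and Bcl2a1b. Without values per library, whether neighbours in this order differ beyond their spread cannot be given. The closest neighbours were Bax and Bak1, at a ratio of 1.25 in Hdac3-deleted cells and 1.13 in wild-type cells, and Bcl2 and Bcl2l2, at 1.38 in Hdac3-deleted cells and 1.31 in wild-type cells. Among all 23275 entries, Mcl1 stood at percentile 97.7 of the levels in Hdac3-deleted cells and 96.8 in wild-type cells. Bok was at percentile 58.5 in Hdac3-deleted cells and 58.8 in wild-type cells.

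Summed over the 7 survival genes, the level was 200 FPKM in Hdac3-deleted cells and 162 FPKM in wild-type cells, a ratio of 1.23. For the 3 effectors the sum was 114 FPKM in Hdac3-deleted cells and 106 FPKM in wild-type cells, a ratio of 1.07. Survival transcripts thus amounted to 1.76 times the effector transcripts in Hdac3-deleted cells and 1.54 times in wild-type cells. Mcl1 alone made up 76.1% of the survival sum in Hdac3-deleted cells and 73.2% in wild-type cells, and Bcl2l1 14.6% in Hdac3-deleted cells and 16.7% in wild-type cells. Bax and Bak1 held 53.7% and 43.1% of the effector sum in Hdac3-deleted cells, against 51.1% and 45.4% in wild-type cells. These sums are descriptions without a test.

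**Figure D3:**
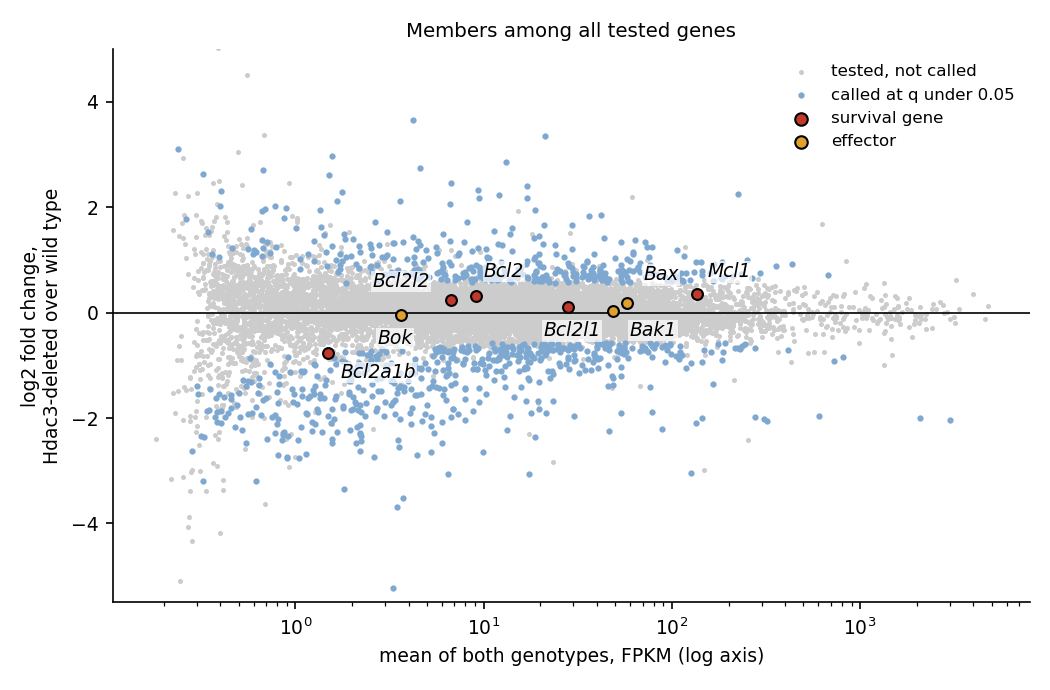
Log2 fold change, Hdac3-deleted over wild type, against the mean FPKM of both genotypes (log axis) for all tested genes with values above 0 in both. Grey points did not pass the authors' q-value under 0.05 and blue points did, 6 genes lie outside the vertical axis, and all 8 tested survival and effector genes lie among the grey points.

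Of the death-promoting BH3-only genes, 2 of 6 tested were called higher and none lower, and 2.81% of all tested genes were called higher. The list was chosen with earlier results of these data known, so the 2 shares do not make a test. Bmf, whose product binds survival proteins and is linked to the cytoskeleton, reached 31.8 FPKM in Hdac3-deleted cells, against 10.0 FPKM in wild-type cells. Bbc3, encoding the p53 target PUMA, was 5.81 FPKM in Hdac3-deleted cells and 2.78 FPKM in wild-type cells. Both had q = 0.0016 in the authors' deposited table. When a normal distribution of the Cuffdiff statistic was used, Bmf was called and Bbc3 was not. The Mcl1 transcript exceeded that of Bmf by 4.78-fold in Hdac3-deleted cells and by 11.9-fold in wild-type cells. Against Bcl2l11, which encodes the BH3-only protein BIM, Mcl1 stood at 10.9-fold in Hdac3-deleted cells and 10.8-fold in wild-type cells. Pmaip1, encoding the MCL-1 partner NOXA, was 2.29 FPKM in Hdac3-deleted cells and 3.79 FPKM in wild-type cells and did not pass (q = 0.0977 in the authors' deposited table).

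None of the 4 tested genes among the remaining BCL2-fold genes was called at a q under 0.05, where 6.95% of all tested genes were. An unadjusted p under 0.05 was reached by 17.1% of all tested genes and by 1 of these 4. Bcl2l12 was the most abundant at 26.2 FPKM in Hdac3-deleted cells and 20.8 FPKM in wild-type cells, followed by Bcl2l13, a mitochondrial protein of the family, at 11.7 FPKM in Hdac3-deleted cells and 11.8 FPKM in wild-type cells. The gene with the unadjusted p under 0.05 was Bcl2l14, at 0.706 FPKM in Hdac3-deleted cells and 0.343 FPKM in wild-type cells (q = 0.182 in the authors' deposited table).

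Downstream of the pore, none of 17 apoptosome, caspase and IAP genes was called in the authors' Cuffdiff test, where 6.95% of all tested genes were. An unadjusted p under 0.05 was reached by 17.1% of all tested genes and by 1 gene of this list. This was Cycs, encoding the released cytochrome c, at 39.2 FPKM in Hdac3-deleted cells and 58.1 FPKM in wild-type cells (q = 0.0542 in the authors' deposited table). The most abundant genes of the list were Birc5, encoding the mitotic protein survivin, at 131 FPKM in Hdac3-deleted cells and 171 FPKM in wild-type cells, and the caspase gene Casp2 at 67.6 FPKM in Hdac3-deleted cells and 58.7 FPKM in wild-type cells. The median log2 fold change of the list was 0.01. Of 18 mitochondrial and endoplasmic reticulum partners of BCL2 proteins, likewise none was called and 1 had an unadjusted p under 0.05. Among them Tmbim6, an endoplasmic reticulum protein, was 194 FPKM in Hdac3-deleted cells and 185 FPKM in wild-type cells, and Fis1, of the mitochondrial fission machinery, 108 FPKM in Hdac3-deleted cells and 136 FPKM in wild-type cells. The gene with the low p was Mtch2, whose product is a mitochondrial docking protein for the BH3-only protein BID, at 32.3 FPKM in Hdac3-deleted cells and 42.3 FPKM in wild-type cells (q = 0.273 in the authors' deposited table). The median of this list was -0.08. Beside a share of 6.95% of all tested genes, the absence of calls is no result about either list.

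Of 10 tested genes linked to turnover of MCL-1, 1 was called higher and 1 lower, where 2.81% and 4.14% of all tested genes were. Btrc, the substrate receptor of an SCF ubiquitin ligase, fell to 11.2 FPKM in Hdac3-deleted cells, against 20.0 FPKM in wild-type cells (q = 0.0016 in the authors' deposited table). Dusp6, a phosphatase of ERK kinases, rose to 44.4 FPKM in Hdac3-deleted cells, against 28.0 FPKM in wild-type cells (q = 0.0139 in the authors' deposited table). Neither acts on MCL-1 alone. Btrc and Dusp6 lost their calls when a normal distribution of the Cuffdiff statistic was used, and Dusp6 also did at a q under 0.01. Of 20 upstream survival inputs 1 was called, where 6.95% of all tested genes were, a count that is no result about them. This was Foxo1, a forkhead factor known to activate BH3-only genes. Its level was 77.6 FPKM in Hdac3-deleted cells and 38.3 FPKM in wild-type cells (q = 0.0016 in the authors' deposited table). The median of these inputs was 0.31 on the log2 scale and 18 of the 20 values were above 0, against 0.03 and 53.4% for all tested genes. Higher values were also seen in all 10 B progenitor and all 10 plasmacytoid dendritic cell markers. Ebf1 belongs to the inputs and to the B progenitor markers alike. All 13 tested neutrophil and monocyte markers were lower. The part of cell composition in the values of the inputs was not tested. Over the 6 lists together 5 of 75 tested genes changed, or 6.67%, a share near the 6.95% of all tested genes and so no result about these lists.

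**Figure D4:**
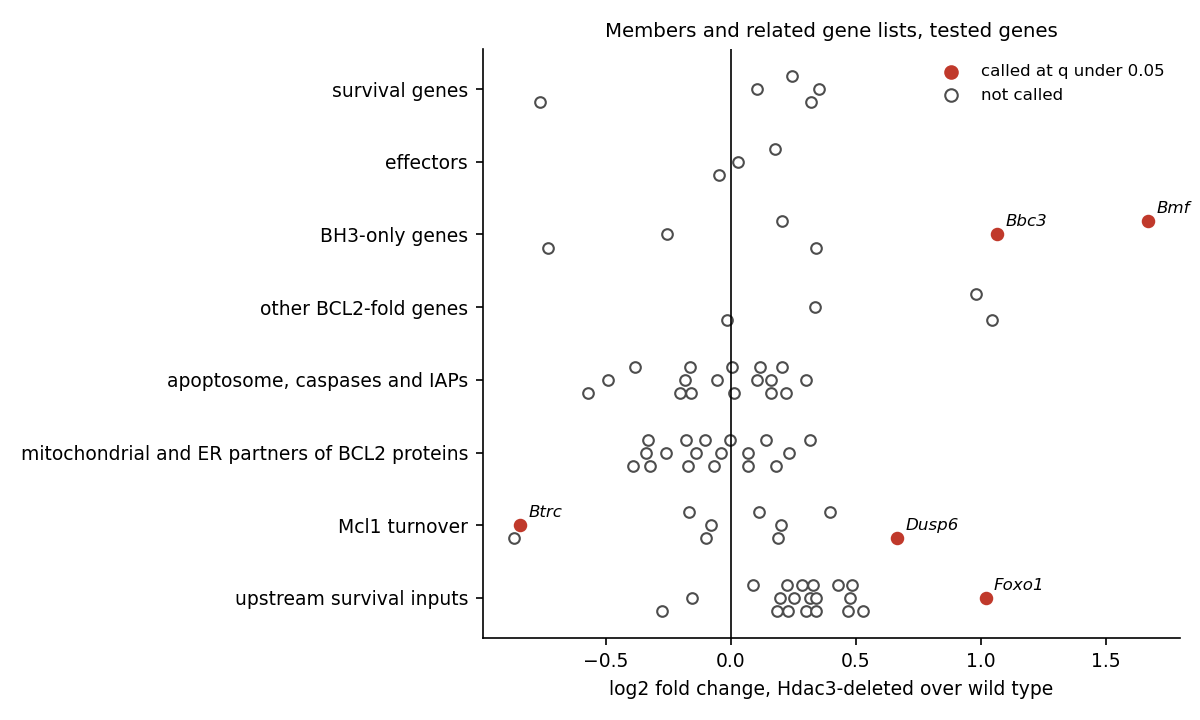
Log2 fold change, Hdac3-deleted over wild type, of each tested gene in the survival and effector groups and in 6 lists of related genes. Filled points passed the authors' q-value under 0.05, namely Bmf, Bbc3, Dusp6 and Foxo1 above 0 and Btrc below 0, and open points did not.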

How the data were processed

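Polyadenylated RNA was sequenced from 4 libraries, 2 per genotype, prepared with an Illumina TruSeq kit per the labels' protocols. The sources used here do not say whether strand was kept. Per the submitters' processing notes, Trimmomatic 0.32, TopHat2 2.0.11, Cuffdiff 2.1.1 and the mm10 build were used. Per the file headers, the authors deposited for each gene an FPKM for either genotype, Cuffdiff's test statistic (a score), a p-value and a q-value. The deposited q-value equals a Benjamini-Hochberg adjustment over the 12683 tested entries to within 5.27e-07. Fold changes were recomputed from the FPKM values without a pseudocount, because cells of the authors' column were damaged by spreadsheet software. At low values the commonest ratio between genotypes was 1.14, in 64 of 5150 entries under 1 FPKM, which gives no depth per library.

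A gene was called at the authors' q-value under 0.05. The genes and the 6 related lists were chosen with earlier results of these data known. All chosen genes were named, as were the called genes of each list or else its 2 most abundant, and the sequence work used GENCODE M21 transcripts and windows of 50 bases on both strands. Cycs, Pmaip1, Bcl2l11, Bcl2l14, Mtch2, Trp53 and Bcl2a1c were named after their values were seen. March5 was found by position because its symbol had become a date. Marker genes Ly6g, Hba-a1 and Hbb-b1 had no entry used here. Adjustment and locus sharing were tested on simulated data. Computations used numpy 2.4.6, pandas 2.3.3, scipy 1.17.1 and matplotlib 3.10.9 under Python 3.11.15. Alternatives varied the threshold, a minimum fold of 1.5, a pseudocount of 1 FPKM, a filter at 1 FPKM, centring, the test and entries that share a locus.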

Additional observations from a re-analysis of the deposited data

How the results depend on the processing

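No paired analysis was possible because the deposited table gives 1 value per genotype, and for the same reason no library could be left out in turn. No survival or effector gene was called under any of the 8 alternatives. For most of them this was fixed in advance. The stricter q, the minimum fold, the pseudocount, centring and the locus filter kept or narrowed the authors' calls and could not add one. In the authors' Cuffdiff test the lowest q of the 8 genes was 0.414 and the lowest p 0.0982. A q under 0.1, or adjustment after the filter at 1 FPKM, therefore could not call one either. Only the normal approximation could have. Centring on the median gene, the 1 alternative that could turn a fold change, left the direction of the 8 tested genes as it was. Bak1 has no value among entries that share no locus. At a q under 0.01 the called genes numbered 189 higher and 345 lower, against 356 and 525 at a q under 0.05. The normal approximation to the test statistic called 136 higher and 335 lower genes, and of the related lists 2 higher and 0 lower, against 4 and 1. Under it Bbc3, Btrc, Dusp6 and the markers Igll1, Dntt, Vpreb1, Pax5, Mpo, Gata2 and Tcf7 lost their calls, and at a q under 0.01 Dusp6, Igll1, Vpreb1, Pax5, Gata2 and Tcf7 did. At a q under 0.1 the lists held 3 lower genes, since Pmaip1 and Cycs then passed. The causes were not tested. The ratio of the summed survival transcripts, 1.23, was 1.24 without the Bcl2a1 copies, 1.26 as shares of all FPKM and 1.21 when centred on the median ratio. That of the effectors, 1.07, was 1.10 as shares and 1.06 when centred. The smallest increase called among genes near the level of Mcl1 was 1.52-fold, so smaller increases of such genes were not called.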
